A study of Mus musculus with 4 samples.

Results

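Natural killer (NK) cells of tumour-draining inguinal lymph nodes are described here from single-cell RNA counts of 4 mice. They were chosen by measured values: a cell barcode needed at least 300 genes, at most 10% mitochondrial transcripts, no transcript of Cd3e, Cd3d, Cd8b1 or Cd79a, and at least 1 transcript each of at least 3 of the 9 genes Ncr1, Klrb1c, Klre1, Klra8, Klra7, Klra4, Eomes, Gzma and Prf1. The rule found 55 NK cells among the 26096 barcodes that passed the gene and mitochondrial limits, out of 30824 barcodes in all. The mice were C57BL/6J and all of them carried B16F10 tumours, a transplantable melanoma line, implanted in both thighs. The control group, 2 mice, had no treatment. In the treated group, also 2 mice, indoximod was given by mouth at 2 mg/ml of drinking water from day 9, together with ibrutinib at 350 ug per day by intraperitoneal injection, and cyclophosphamide was injected at 150 mg/kg on day 10. Indoximod acts on the tryptophan-degrading IDO pathway, ibrutinib inhibits the B cell kinase BTK, and cyclophosphamide is an alkylating drug. Nodes of both groups were taken 48 hours after the cyclophosphamide day. Barcodes carry a library number from 1 to 4 that is not tied to a mouse or a group in the labels or tables used here, so each library is described by itself and treated against control is not analysed here. A library is taken to be 1 mouse, which the labels state only in general terms.

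NK cells are innate lymphocytes that kill infected or transformed cells by releasing perforin and granzymes, without a rearranged antigen receptor. They read a balance of activating receptors, which signal through small adaptor proteins in the membrane, and inhibitory receptors for MHC class I, which in the mouse include the Ly49 family and the CD94 and NKG2A pair. They depend on interleukin 15, are primed by interleukin 18 and type I interferon, and mature through stages marked by loss of CD27 and gain of CD11b.

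Every library held a small number of NK cells. Library 1 held 10 NK cells among 5667 kept barcodes, or 0.176% (exact 95% interval 0.0847 to 0.324%). Library 2 held 12 of 5758, or 0.208% (0.108 to 0.364%). Library 3 held 19 of 6335, or 0.300% (0.181 to 0.468%), and library 4 held 14 of 8336, or 0.168% (0.0918 to 0.282%). These intervals overlapped for all 4 libraries, and over all kept barcodes the share was 0.211% (0.159 to 0.274%). Intervals in the text are Clopper-Pearson for shares and exact Poisson for counts, and they cover counting error only. The NK cells gave 58176, 62215, 156089 and 82312 unique molecular identifiers (UMIs, counted transcripts) in libraries 1 to 4. Their median was 6087 UMIs per cell, from 947 to 27932, and 2014 genes.

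The rule cut few cells near its threshold. Among cells without the 4 excluded genes, 1032 had no rule gene, 19 had 1, 6 had 2, 6 had 3, 3 had 4, 7 had 5, 9 had 6, 13 had 7, 11 had 8 and 6 had 9. The 6 cells with 3 rule genes, just inside, all had transcripts of Nkg7, Tyrobp, Txk and Klrd1, and 5 of them had Il7r, the receptor for interleukin 7. Of the 6 cells with 2 rule genes, just outside, 4 had Nkg7, 4 had Tyrobp, 3 had Klrd1 and 4 had Il7r, and 1 had Cd3g and 1 had Trac. The excluded genes cut far more: 289 kept cells had at least 3 rule genes, and 234 of them had a transcript of at least 1 excluded gene, 208 of Cd3e, 223 of Cd3d, 138 of Cd8b1 and 40 of Cd79a. Of those 234 cells, 34 had Ncr1, so some NK cells that held a stray T or B cell transcript may lie outside the gate, and their number was not measured.

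**Figure D1:**
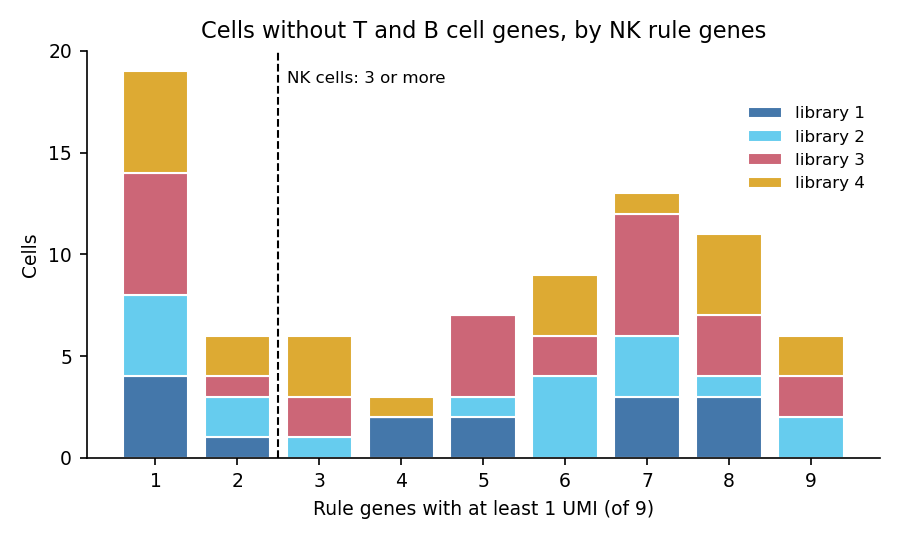
Number of cells (y) by how many of the 9 rule genes had at least 1 UMI (x), among cells without Cd3e, Cd3d, Cd8b1 and Cd79a, stacked by library; the 1032 cells with none are not drawn, and the dashed line is the rule. Of the bars drawn, that of cells with 1 gene (19) is the tallest, 6 cells each stand just outside and just inside the line, and all 4 libraries hold cells with 7 or 8 genes.

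The values that chose the cells are given as a description, in CPM, UMI counts scaled to the summed UMIs of the NK cells. Ncr1, the activating receptor NKp46, stood at 808, 595, 807 and 1312 CPM in libraries 1 to 4 and was found in 52 of 55 cells. Klrb1c, the receptor NK1.1, stood at 653, 675, 525 and 668 CPM, in 51 cells. Eomes, a T-box transcription factor of conventional NK cells, stood at 275, 257, 160.2 and 292 CPM, in 38 cells. Gzma, which encodes granzyme A, stood at 13665, 6461, 9437 and 10059 CPM and Prf1, the pore-forming perforin, at 619, 530.4, 468 and 680.3 CPM, each in 44 cells. Each of these markers was present in every library. The rule required such transcripts, so their presence gives the name NK no support of its own. The Ly49 genes of the rule were found in fewer cells, Klra7 in 26, Klra4 in 24 and Klra8 in 21. Ly49 genes are near-identical copies of one another, and how reads were split among them is uncertain.

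The libraries held 7002, 6978, 7013 and 9831 barcodes, against approximately 2000 cells per sample in the labels, with medians of 4672 to 5002 UMIs. Of the barcode sequences, 86 occurred in more than 1 library and none of these was an NK cell. The doublet caller marked 0 of the 55 NK cells. NK cells were set against CD8 T cells (6527 cells with Cd8b1 and Cd3e or Cd3d), against the 651 of these that also had Ccl5 and Il2rb, called memory-like here, and against 245 gamma-delta T cells without interleukin 17 genes. Their median depths were 7081, 10360 and 5260 UMIs. UMIs were summed per class and library. A gene was tested where it reached 50 CPM in either class, and it was called higher or lower where every library put it at least 2-fold to the same side. This is a rule of size and not a significance test, since cells are not replicates and the libraries belong to no known group. Genes that travel with the rule genes enter the gate with them, so these comparisons describe the gated cells. The range behind a log2 ratio runs over the 4 libraries. Where some library lacked counts in a class, the counting interval is given instead and named. The lists of genes by role were chosen with earlier results of these data known.

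Against CD8 T cells, NK cells were higher in the genes of NK receptors, of the membrane adaptors FcRgamma and DAP12, of killing and of chemokines, and lower in T cell receptor genes and in the transcription factors Id3, Tcf7, Lef1 and Bcl11b. Of 2980 genes tested, 236 (7.92%) were called higher and 58 (1.95%) lower. Of 145 tested genes of the role lists, 53 were called higher and 19 lower. Of 19 tested genes known from NK cells outside the rule, 18 were called higher, with a median log2 ratio of 4.25, and the remaining one was Txk. CPM put the median gene 0.44 higher in NK cells on the log2 scale, and scaling by trimmed means (TMM) put it 0.26 lower (-0.26). Under TMM 112 genes were called higher and 180 lower of 2695, and 44 and 29 of 138 list genes. Where TMM ends or adds a call among the list genes of this comparison, that is said beside the list. With every cell thinned to 1500 UMIs, which leaves fewer counts per gene, 185 genes were called higher and 58 lower of 2970, of which 122 and 42 were also called at full depth. Of the 53 list genes called higher, 39 kept the call when thinned, and it ended for Klra3, Klrg1, Fcgr3, Itgal, Slamf7, Syk, Sh2d2a, Ccl3, Ccl4, Ifng, Itgam, Spn, Cxcr3 and Fosb. Of the 19 called lower, 16 kept it, and it ended for Cd69, Ifit1 and Cd6.

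**Figure D2:**
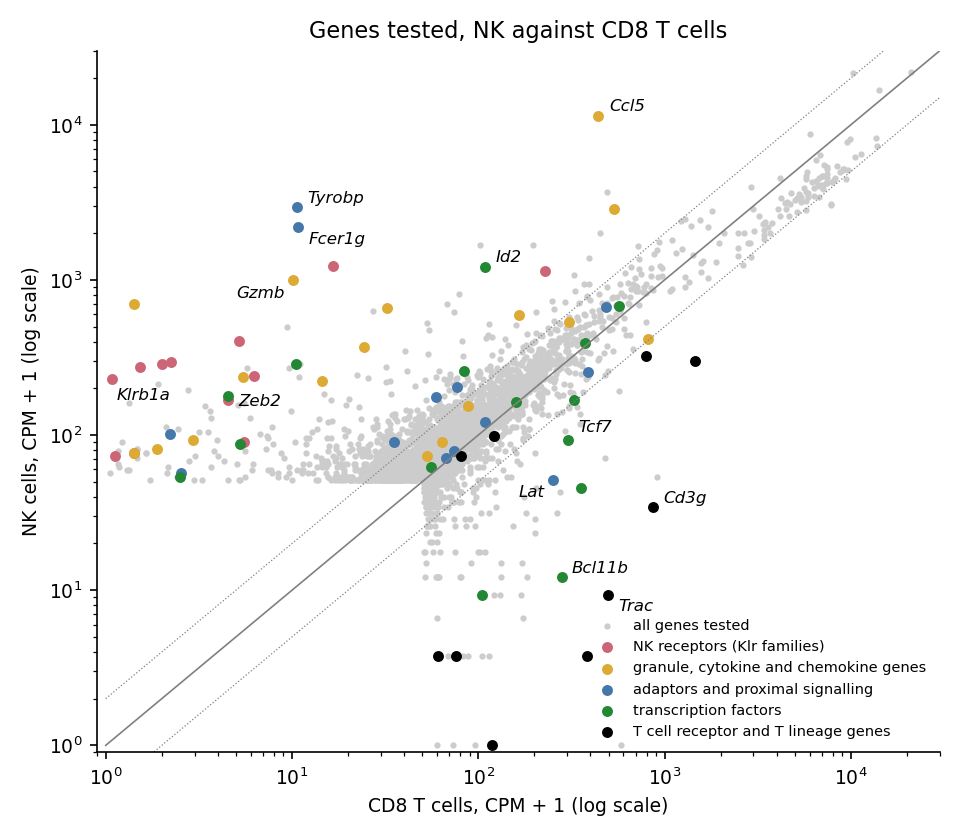
Level of each tested gene in CD8 T cells (x) and NK cells (y), both as CPM + 1 on log scales from UMIs summed over libraries, with coloured points for genes of 5 kinds of role; the solid line is equality and the dotted lines are 2-fold. Tyrobp, Fcer1g, Gzmb and Klrb1a lie far above the dotted band, and Cd3g, Trac and Bcl11b lie far below it.

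Tyrobp and Fcer1g, which encode adaptors of activating NK receptors, were far higher. Tyrobp, the gene of DAP12, stood at 3214, 3183, 2787 and 2952 CPM in the NK cells of libraries 1 to 4 and at 12.6, 10.5, 7.19 and 8.7 CPM in CD8 T cells, a log2 ratio of 8.27 (7.99 to 8.60). The lowest NK library, at 2787 CPM, lay far above the highest CD8 T library, at 12.6 CPM. Fcer1g, the FcRgamma chain that serves NKp46 and CD16, stood at 2406, 2169.9, 1992 and 2442 CPM against 9.81 CPM over CD8 T cells, a log2 ratio of 7.80 (7.33 to 8.16). Tyrobp was found in 54 of 55 NK cells and Fcer1g in 53. In B cells, whose median depth was 3879 UMIs, 13.3% and 1.73% of cells had a transcript of them. With every cell thinned to 1500 UMIs the shares were 96.3% of NK cells for both genes, and 5.42% and 0.783% of B cells. Hcst, which encodes DAP10, the adaptor of NKG2D, stood at 666 CPM against 481 (0.47, 0.13 to 0.95). Cd247, the zeta chain of the T cell receptor, stood at 97.5 against 120.1 CPM (-0.30, -0.97 to 0.38), and neither gene was called. Lat2, a LAT-like scaffold of B, NK and myeloid cells, was higher at 100 CPM against 1.22 (6.37, 5.05 to 7.47). Lat, the scaffold of the T cell receptor, was lower, at 34.4, 48.2, 51.3 and 60.7 CPM against 237 to 259 CPM (-2.31, -2.79 to -2.04). Of 14 adaptor and signalling genes tested, 5 were called higher (Tyrobp, Fcer1g, Lat2, Syk, Sh2d2a) and 1 lower, with a median log2 ratio of 0.89. Under TMM the median was -0.15 with 3 higher and 2 lower, the calls of Syk and Sh2d2a ended and Lck was called lower.

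Receptors of the Klr families, the lectin-like receptors of NK cells, were higher. All 9 tested genes of the CD94, NKG2 and NKR-P1 list were called higher, with a median log2 ratio of 5.85 against 0.44 over all genes. Klrk1, the activating receptor NKG2D, stood at 1495, 1511, 897 and 1446 CPM against 11.1 to 18.8 CPM in CD8 T cells. Klrd1, or CD94, the partner chain of the NKG2 receptors, stood at 1599, 1109, 1006 and 1081 CPM against 218 to 241 CPM, a smaller log2 ratio of 2.32 (2.13 to 2.73). Klrb1a, the activating receptor NKR-P1A, was counted 82 times in NK cells and 4 times in 6527 CD8 T cells (11.48, counting interval 10.07 to 13.39). Klrb1f, another member of that family, stood at 295 CPM against 1.24 (7.90, 7.29 to 8.38), and Klri2, a receptor chain that pairs with the product of Klre1, at 273 against 0.518 (9.04, 8.04 to 11.48). Of the Ly49 genes outside the rule 3 could be tested, and 2 were called higher: Klra9 at 287 CPM (8.14, 7.20 to 9.57) and Klra3 at 239.7 CPM (5.51, 4.74 to 6.59). Klra1 was not called, with 0, 289, 83.3 and 12.1 CPM in libraries 1 to 4.

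These receptor genes lie together in the NK gene complex. On chromosome 6 of the mouse build mm10, from 128609227 to 131247362, the GENCODE vM21 annotation and the count matrix share 50 genes, of which 14 were tested against CD8 T cells. Of the 14, 10 were called higher, 1 lower and 3 not called. The 10 were Klrb1a, Klrb1b, Klrb1f, Klrd1, Klrk1, Klrc2, Klrc1, Klri2, Klra9 and Klra3. All 10 are list genes already counted above. The bounds of the region were set by the first and last Klr gene of the lists, without Klrg1, so the count is no separate result. The gene called lower was Cd69, an early activation receptor, at 53 CPM against 149 (-1.49, -2.76 to -1.17), and that call ended without the 3 cells described below (-1.31), with the stricter T cell exclusion of no Cd3g, Trac or Cd8a (-1.26), in thinned cells (-0.91) and as a mean of single-cell CPM (-1.26). Clec2i, Clec2d and Klra1 were not called.

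Other receptors were mixed. Of 13 tested, 7 were called higher and 2 lower, with a median of 1.91. Cd244, the receptor 2B4, stood at 241, 289, 192 and 170.1 CPM against 0.685 to 1.2 CPM (7.85, 7.68 to 8.09), a narrow range over libraries. Itga2, the integrin CD49b by which mouse NK cells are often sorted, stood at 153 CPM against 2.41 (5.99, 5.62 to 6.99). Fcgr3, or CD16, the receptor for antibody-coated targets, stood at 75.3 CPM against 0.638 (6.88, 6.25 to 7.87). Slamf7, Cd7, Itgb2 and Itgal were also called higher, Itgal not under TMM. Slamf6, an adhesion receptor of T and B cells, was called lower on 3 counts (-3.85, counting interval -6.13 to -2.30).

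Start-site regions of 4 of these genes are shown because their transcripts mark the class from different sides: the rule gene Ncr1, the granule gene Nkg7, the adaptor Fcer1g and the receptor Klrb1a. They are RefSeq sequences of GRCm38.p6, from 250 bases before to 50 bases after the start, read 5′ to 3′ on the gene's strand, at chr7:4337465-4337764 (plus strand), chr7:43436888-43437187 (plus), chr1:171234300-171234599 (minus) and chr6:128622885-128623184 (minus). Capitals mark matches on either strand of 4 motifs: T-box AGGTGT, RUNX TGTGGT, ETS AGGAAG and STAT TTCNNNGAA.
Ncr1: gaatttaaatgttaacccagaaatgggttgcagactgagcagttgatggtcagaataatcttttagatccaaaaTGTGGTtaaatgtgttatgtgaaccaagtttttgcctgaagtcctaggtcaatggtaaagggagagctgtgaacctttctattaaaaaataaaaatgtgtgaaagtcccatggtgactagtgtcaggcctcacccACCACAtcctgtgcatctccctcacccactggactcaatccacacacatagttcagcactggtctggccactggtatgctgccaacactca
Nkg7: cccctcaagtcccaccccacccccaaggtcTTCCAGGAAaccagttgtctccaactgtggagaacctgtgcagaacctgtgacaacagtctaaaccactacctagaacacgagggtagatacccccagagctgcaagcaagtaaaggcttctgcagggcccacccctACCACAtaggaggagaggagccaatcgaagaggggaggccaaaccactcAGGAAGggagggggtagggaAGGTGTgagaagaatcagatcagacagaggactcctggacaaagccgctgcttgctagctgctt
Fcer1g: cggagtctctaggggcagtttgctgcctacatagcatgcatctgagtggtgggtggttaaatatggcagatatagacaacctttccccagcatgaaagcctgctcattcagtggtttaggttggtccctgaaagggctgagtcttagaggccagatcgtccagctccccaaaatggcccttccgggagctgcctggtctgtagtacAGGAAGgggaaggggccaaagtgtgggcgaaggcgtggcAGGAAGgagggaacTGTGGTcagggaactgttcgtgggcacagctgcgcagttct
Klrb1a: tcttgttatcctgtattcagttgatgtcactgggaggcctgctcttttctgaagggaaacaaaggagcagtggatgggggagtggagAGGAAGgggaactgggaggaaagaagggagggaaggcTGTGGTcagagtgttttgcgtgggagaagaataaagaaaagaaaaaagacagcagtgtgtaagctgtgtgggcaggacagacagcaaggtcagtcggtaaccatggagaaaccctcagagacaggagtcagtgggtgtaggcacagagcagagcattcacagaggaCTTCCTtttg
Each of the 4 holds a match of the RUNX letters, 2 of them in Ncr1. Nkg7 holds a match of each motif. Among the promoters of all genes in the RefSeq table, 32851 in number, 13.7% hold the T-box letters, 16.8% the RUNX letters, 35.4% the ETS letters and 8.3% the STAT letters. Of 239 promoters of 181 genes called higher in NK cells against CD8 T cells the shares were 8.79, 19.2, 38.1 and 9.62%, and of 3026 promoters of genes tested in that comparison they were 9.58, 13.3, 36.3 and 7.17%. The matches describe letters in these windows and are not binding sites.

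Genes of the killing machinery and of chemokines were higher. Of 10 tested genes of the granule and death ligand list, 6 were called higher and none lower, with a median of 3.11. Gzmb, which encodes granzyme B, stood at 275 and 241 CPM in the NK cells of libraries 1 and 2 and at 1576 and 1008 CPM in libraries 3 and 4, against 9.07 CPM over CD8 T cells (6.79, 3.32 to 11.49). Its NK level was higher than its CD8 T level in every library and differed several-fold between libraries. Much of its level in libraries 3 and 4 came from few cells. Of its 360 counts in NK cells, 70 lay in 1 cell of library 3, 45 in another, and 51 in 1 cell of library 4. Nkg7, a granule membrane protein of killer lymphocytes, stood at 3386, 2427, 2659 and 3244 CPM against 513 to 551 CPM (2.43, 2.22 to 2.72). Serpinb6b, a serpin of killer cells, stood at 371 CPM against 23.3 (3.99, 3.66 to 4.74), and Fasl, the ligand of the death receptor Fas, at 92.0 against 1.95 (5.56, 3.62 to 6.18). Ctsw and Serpinb9 were also called higher, Ctsw not under TMM.

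Of 7 tested cytokine and chemokine genes, 5 were called higher, with a median of 4.51. Ccl5, a chemokine of killer and memory lymphocytes, was found in 55 of 55 NK cells and stood at 19991, 12360.4, 7874 and 11602 CPM against 347 to 581 CPM in CD8 T cells (4.70, 4.5 to 5.10). B cells had a Ccl5 transcript in 5.58% of cells. Ccl4 stood at 103, 64.3, 288 and 352 CPM and Ccl3 at 34.4, 32.1, 96.1 and 97.2 CPM. Both encode inflammatory chemokines, and their log2 ratios were 5.72 (3.36 to 7.04) and 7.49 (6.23 to 7.94), and 4.73 and 4.34 in thinned cells, where neither was called. Xcl1, which draws cross-presenting dendritic cells, stood at 429.7, 193, 1019 and 498 CPM (4.39, 2.32 to 5.61). Of 84 Ccl4 counts 19 lay in 1 cell of library 4, and of 237 Xcl1 counts 63 lay in 1 cell of library 3. Ifng, which encodes interferon gamma, stood at 34.4, 96.4, 103 and 60.7 CPM, on 29 counts in 15 cells, against 0.877 CPM (6.53, 4.40 to 7.55), and was not called in thinned cells (5.39). Under TMM Ltb was called lower. The Ifng levels of the NK libraries did not overlap with the CD8 T libraries, which lay between 0.48 and 1.62 CPM.

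**Figure D3:**
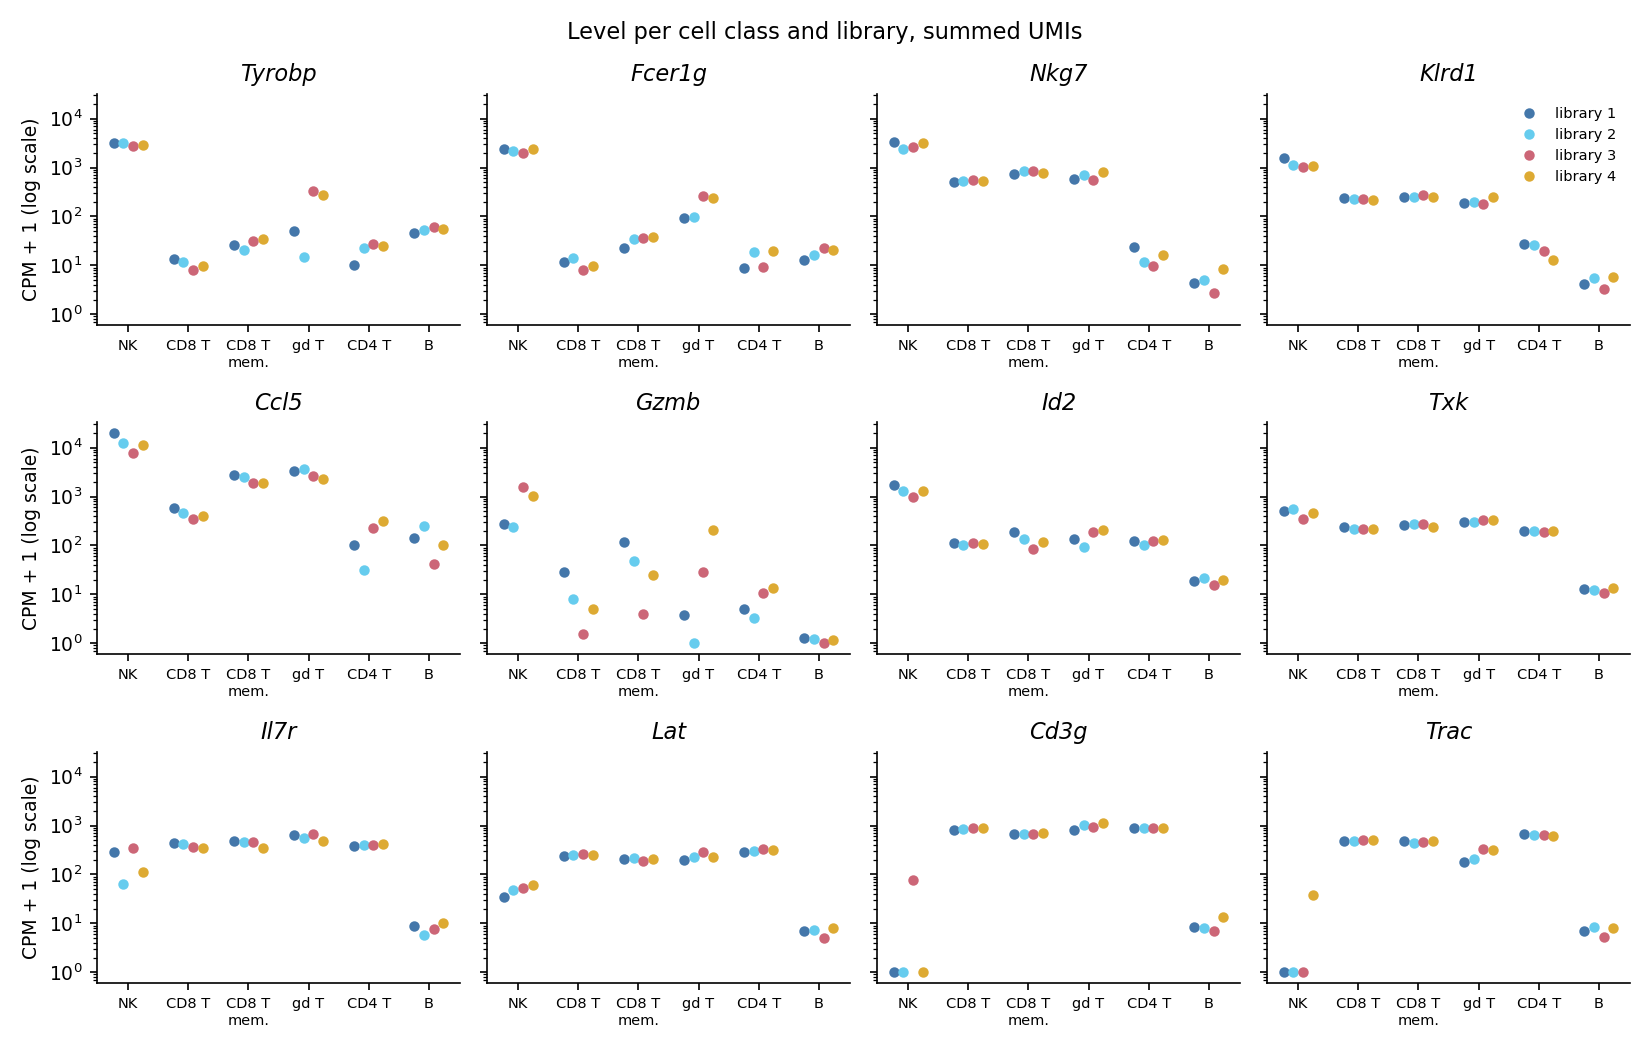
Level of 12 genes (CPM + 1, log scale, UMIs summed per class and library) in NK cells and 5 other gates, 1 point per library; CD8 T mem. is the memory-like gate and gd T the gamma-delta gate. NK points of Tyrobp, Fcer1g, Nkg7, Klrd1, Ccl5 and Id2 lie above those of the other gates in all 4 libraries, those of Txk and Il7r lie near T cells, and those of Cd3g and Trac are at 0 in 3 libraries each.

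Cytokine receptors differed in both directions. Il2rb, the chain shared by the receptors of interleukins 2 and 15, stood at 550.1, 1029, 718 and 535 CPM against 66.8 CPM (3.39, 2.91 to 3.81). The interleukin 18 receptor chains Il18rap and Il18r1 stood at 237 against 9.85 CPM (4.59, 4.06 to 5.25) and at 256 against 40.4 CPM (2.67, 2.47 to 3.03). Ifngr1 was the other gene called higher, and Il6ra, on 1 count, was called lower, among 10 tested. The list's median was 0.29, below that of all genes, and -0.31 under TMM, which added Il21r to the genes called lower.

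Transcription factors also divided. Zeb2, a factor of late NK maturation, stood at 223, 225, 89.7 and 279 CPM against 2.06 to 4.6 CPM (5.66, 4.70 to 7.09). Irf8 stood at 287 CPM against 9.45 (4.92, 4.36 to 5.56). B cells, which use Irf8 too, held 324 CPM. Id2, which restrains E proteins and is needed by innate lymphocytes, stood at 1702, 1318, 967 and 1276 CPM against 102 to 113 CPM (3.50, 3.09 to 3.91). Tbx21, or T-bet, was higher on 31 counts in 26 cells (4.35, 3.71 to 4.90). Bhlhe40 was called higher at 53 CPM against 1.5 (5.15, 2.29 to 6.55), a call that ended under TMM (3.24), without library 2 (3.45), without the 3 cells described below (3.58) and as a mean of single-cell CPM (3.80). Id3, Tcf7, Lef1 and Bcl11b were called lower. Tcf7, a factor of naive and stem-like T cells and of early NK cells, stood at 103, 145, 70.5 and 85 CPM against 289.7 to 309 CPM (-1.71, -2.13 to -1.08). Bcl11b, a factor of T cell commitment, was counted 4 times in NK cells (-4.65, counting interval -6.52 to -3.29). Of 15 tested, 5 were called higher and 4 lower. The median was 0.16, and -0.55 with 4 higher and 5 lower under TMM, which added Satb1.

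Genes of late NK maturation were higher than in CD8 T cells. Of 8 tested, 7 were called higher (Itgam, S1pr5, Klrg1, Zeb2, Cma1, Spn, Irf8), with a median of 4.54. Itgam, or CD11b, stood at 120.3, 80.4, 32.0 and 121 CPM against 0.638 (6.88, 5.36 to 8.21). Under TMM 5 were called higher, without S1pr5 and Spn, and Ly6c2 was called lower. Against memory-like CD8 T and gamma-delta T cells, 6 of 8 were called higher each time and Ly6c2 was called lower on CPM. Summed, the list stood at 1368 CPM in NK cells and 614 in CD8 T cells. It stood at 1446 CPM in memory-like CD8 T cells and 897 in gamma-delta T cells. Cd27, which early NK cells and T cells share, stood at 120.3, 225, 103 and 134 CPM against 226 to 244 CPM and was not called (-0.81, -1.25 to -0.07). Of 7 tested genes of early NK cells, 1 was higher (Cd7) and 1 lower (Tcf7), and TMM added Ltb to the lower ones. Of 4 tested genes of type 1 and other innate lymphoid cells, none was called higher and Inpp4b was lower.

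Among 12 tested homing receptors, 6 were called higher. Ccr2, the receptor for monocyte-drawing chemokines, stood at 722, 530.4, 468 and 377 CPM against 7.74 to 9.34 CPM (5.90, 5.59 to 6.37). Cxcr3, S1pr5, Itga4 and Itgb1 were also among those called, and the calls of Cxcr3 and S1pr5 ended under TMM. Ccr7, the chemokine receptor of node entry, was counted 8 times, all in 1 cell of library 2 described below. S1pr1, the receptor of node exit, stood at 155, 16.1, 32.0 and 0 CPM against 273 CPM over CD8 T cells (-2.71, counting interval -3.54 to -1.98). Neither Ccr7 nor S1pr1 was called on CPM, and both were called lower under TMM.

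Genes of TEC-family kinases and of the IDO pathway were measured as far as the counts allowed. Txk, a TEC-family kinase of T and NK cells, was found in 51 of 55 NK cells and stood at 516, 563, 339.6 and 462 CPM against 214 to 234 CPM, which the rule did not call (0.99, 0.65 to 1.38). Btk, the B cell kinase, was counted 2 times, both in 1 cell of library 2, where B cells held 113 CPM. Ido1 was counted 0 times, which allows up to 3 counts or 8.36 CPM.

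Type I interferon genes were lower or not called. Of 14 tested, none was called higher and 3 were lower, with a median of -0.50. Ifi27l2a stood at 17.2, 48.2, 64.1 and 60.7 CPM against 577, 614, 1128 and 1199.7 CPM (-4.10, -5.07 to -3.67). Isg15, a ubiquitin-like protein, was at 0 in libraries 1 and 2 and at 44.8 and 48.6 CPM in libraries 3 and 4 (-1.75, counting interval -2.75 to -0.90), and Ifit1 was lower on 8 counts (-1.44, counting interval -2.65 to -0.46). Under TMM Ifit3 was called lower as well. Of 9 tested cell cycle genes none was called in either direction (median 1.26), of 7 immediate early and stress genes 1 was higher (Fosb, not under TMM), and 1 gene of the p53 list was tested and not called.

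T cell receptor genes are given as a description. Both gates were set by T cell genes, so low values here are no separate check of the gate. Of 10 tested genes outside the gate, 7 were called lower, with a median of -3.65. Trac, the constant segment of the alpha chain, was counted 3 times in 2 cells (-5.89, counting interval -8.16 to -4.34). Cd3g was counted 12 times, all of them in 1 cell of library 3 (-4.69). Themis, a signalling protein of T cell development, and Dapl1 were not counted at all, against 5869 and 29160 counts in CD8 T cells, and were at least 14.0-fold and at least 69.5-fold lower. Trbc1 was different: it stood at 206, 338, 256 and 510.3 CPM against 792 CPM over CD8 T cells and was found in 42 of 55 NK cells, 76.4%, where 5.44% of B cells had it. Trbc2 was found in 26 cells and was called lower, and Trbc1 was called lower under TMM. At 1500 UMIs per cell Trbc1 was found in 25.9% of NK cells and 1.95% of B cells. Transcripts of an unrearranged beta locus and of a rearranged one cannot be told apart in these counts.

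Against memory-like CD8 T cells, the T cells that share Ccl5 and Il2rb, NK cells were again higher in genes of receptors and adaptors, and also in Cma1 and Car2. Of 2968 genes tested, 175 (5.90%) were called higher and 44 (1.48%) lower, and 42 and 18 of 142 list genes. Under TMM 76 genes were higher and 151 lower of 2664, and the median of all genes moved from 0.40 to -0.25. Memory-like cells held 27.7 CPM of Tyrobp (6.74, 6.44 to 7.31), 32.1 CPM of Fcer1g (6.09, 5.82 to 6.81) and 2 counts of Klrb1a (9.74). Klrb1f (6.47, 6.22 to 6.64), Klri2 (6.41, 5.43 to 8.88), Cd244 (6.17, 5.97 to 6.43) and Klra9 (5.55, 4.5 to 6.97) were higher too. Car2, a carbonic anhydrase, stood at 268 CPM against 1.87 (7.16, 5.50 to 8.37). Cma1, a chymase, was counted 57 times against 2 (9.22, counting interval 7.30 to 12.3), and Klrg1, a receptor of late effector cells, 27 times against 5. Gzmb was higher at 1003 CPM against 47.0 (4.42, 1.24 to 9.06), a call that TMM ended, and Ifng at 80.8 against 3.6 (4.49, 2.80 to 5.86). In thinned cells 78 of the higher and 26 of the lower calls held, and those of Klrg1 (3.39), Gzmb (4.86) and Ifng (5.64) ended, as did that of Gzmm among the lower genes given next (-2.11).

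The genes lower than in memory-like cells included those of the T lineage. Dapl1, Themis, Fam169b and Tmem108 were not counted in NK cells and were at least 41.3-fold, 12.3-fold, 10.8-fold and 6.41-fold lower, Tmem108 not without library 1. Cd8a (-6.72), Cd5 (-4.78) and Gzmm, which encodes granzyme M, had 1 count each in NK cells, and Trac had 3 (-5.80). Gzmm stood at 64.2 CPM in memory-like cells (-4.52, counting interval -9.83 to -2.04), higher there than in NK cells. Cd3g (-4.35) and Bcl11b (-4.18) were lower as well. Ctsw, Ifngr1, Cxcr3, Itgal and Klrc1 were not called. Tcf7, called lower than in CD8 T cells, was not called here either. Cxcr3 stood at 72.5 CPM in NK cells and at 86.3 CPM in memory-like cells (-0.25, -0.39 to 0.06).

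Summed over libraries, gamma-delta T cells held more of some NK genes than CD8 T cells did, and NK cells were higher than both in those genes. The gamma-delta T levels were uneven over libraries. There the 9 rule genes summed to between 103 and 1550 CPM, against 93.6 to 122 CPM in CD8 T cells. The Ly49 genes outside the rule summed to between 16.7 and 147 CPM, against 10.1 to 18.8 CPM. The T cell gates did not leave out cells with NK rule genes. Of 3097 genes tested, 129 (4.17%) were called higher in NK cells and 70 (2.26%) lower, and 41 and 23 of 151 list genes. Under TMM 82 were higher and 92 lower of 2615, and the median moved from 0.21 to -0.15. Tyrobp stood at 172 CPM in gamma-delta T cells (4.10, 3.08 to 7.84) and Fcer1g at 176 CPM (3.64, 2.95 to 4.71). The largest called ratios were those of Klra3 (239.7 against 2.89 CPM, 6.38), Cma1 (57 against 3 counts, 6.2), Klrb1a (82 against 6 counts, 5.72), Car2 (4.73, 3.61 to 6.80), Ccl3 (27 against 1 count) and Tnfsf12, the cytokine TWEAK (28 against 2 counts). AC163354.1 (29 against 1 count), Gm26870 (34 against 2) and Phactr3 (20 against 0, at least 25.8-fold) were also among the 10. Gm26870 rested on library 1, at 464 CPM there, and was not called without it, and Phactr3 was not called without library 4, under TMM or with the stricter T cell exclusion. In thinned cells 63 of the higher and 41 of the lower calls held, and those of Klra3, Ccl3, Tnfsf12, AC163354.1, Gm26870 and Phactr3 ended.

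Lower than in gamma-delta T cells were the gamma-chain genes Trgv2, Tcrg-C2 and Tcrg-C1, which were not counted in NK cells and were at least 21.4-fold, 15.7-fold and 13.9-fold lower. Tcrg-C4 was called lower too, but was counted 14 times in 8 NK cells. Trdc, a gene of the gamma-delta gate and so not tested, was counted 11 times in 10 NK cells. Dapl1, Fam169b, Themis and Trib2 were not counted either (at least 22.0-fold, 12.4-fold, 11.5-fold and 7.94-fold lower). Igfbp4 (-5.56), Bcl11b (-4.93), Cd3g (-4.87) and Trac (-4.97) were called lower. Xcl1, Klrc1, Cd7 and Ifngr1, higher than in CD8 T cells, were not called here. Xcl1 stood at 96.0 CPM in gamma-delta T cells, with log2 ratios from 0.02 to 3.71 over the libraries. The 3 comparisons share the NK cells, so their calls are given side by side and not counted together.

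The NK cells differed among themselves in receptor repertoire. Of the rule genes Klra4, Klra7 and Klra8, 10 cells had transcripts of all 3 and 18 had none. Of all Ly49 genes listed, 14 cells had none, 9 had 1, 5 had 2, 15 had 3, 10 had 4 and 2 had 5. Cd27 was found in 27 cells and Itgam in 19, 10 cells had both and 19 had neither. Eomes was found in 38 cells and Tbx21 in 26, and 18 had both. At this depth a missing transcript does not show that a gene is off.

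Of the 55 cells, 13 had a transcript of Il7r, and they stood apart in several genes. This division was chosen after the values were seen and is a description without a test. Il7r stood at 292, 64.3, 352 and 109 CPM in libraries 1 to 4, and the 13 cells came from all of them (2, 2, 6 and 3 cells). Their median depth was 6320 UMIs against 6042 in the other 42 cells, and their median number of rule genes was 4 against 7. Gzma was found in 4 of the 13 cells and in 40 of the 42, at 1318 against 12274 CPM (log2 ratio -3.22, counting interval -3.51 to -2.94). Prf1 (-1.77), Klra9 (-3.92), Klra3 (-2.28) and Zeb2 (-3.21) leaned the same way. Gzma and Prf1 are rule genes, and the 13 cells met the rule with fewer rule genes at the median. The values of Gzma and Prf1 are therefore not separate from the gate. Cma1, Klrg1 and S1pr5, genes of late maturation, had 57, 27 and 23 counts in the other cells and 0 in the 13.

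The Il7r cells held more of genes known from early NK cells and innate lymphoid cells. Ltb, which encodes lymphotoxin beta and shapes lymphoid tissue, was found in 12 of the 13 cells and 15 of the 42, at 943 against 254 CPM (1.90, 1.41 to 2.38). Tcf7 stood at 254 against 43.5 CPM (2.55, 1.46 to 3.70). Kit, the stem cell factor receptor, stood at 133 against 14.5 CPM (3.20, 1.44 to 5.31). Emb (1.37), Klrc1 (1.45) and Cd160 (1.88) were higher too. Summed over lists, genes of early NK cells stood 1.34 higher (1.07 to 1.60), those of innate lymphoid cells 2.00 higher (1.49 to 2.52, both without Il7r), and those of late maturation fell by 1.68 (-2.17 to -1.22). The sum of the CD94, NKG2 and NKR-P1 receptors differed by -0.01 (-0.19 to 0.17), with members on both sides. Klrc1 (1.45) and Klrb1f (0.72) were higher in the Il7r cells and Klri2 (-1.10), Klrd1 (-0.41) and Klrg1 lower. The rule genes Ncr1, Klrb1c and Eomes differed by -0.25, -0.15 and -0.65, with counting intervals that include 0. All counting intervals of this division pool UMIs over cells and leave out the spread between cells and libraries. They give no verdict on a gene. Markers of myeloid and dendritic cells stood at 919 against 384 CPM in the 2 sets (1.26, 0.82 to 1.70), with 44 of 76 counts from Lyz2 in 1 of the 13 cells. T cell markers stood at 907 against 598 CPM (0.60, 0.19 to 1.00), with 38 of the 75 counts from Trbc1 and 36 from Trbc2, and with Cd3g, Trac, Cd4, Cd8a and Cd5 at 0 in the 13 cells. Genes of the T cell receptor and T lineage, a list that holds those markers, stood at 1210 against 855 CPM (0.50, 0.15 to 0.84). Il7r, Ltb and Tcf7 are expressed by T cells too. The part of these markers in the differences was not tested.

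**Figure D4:**
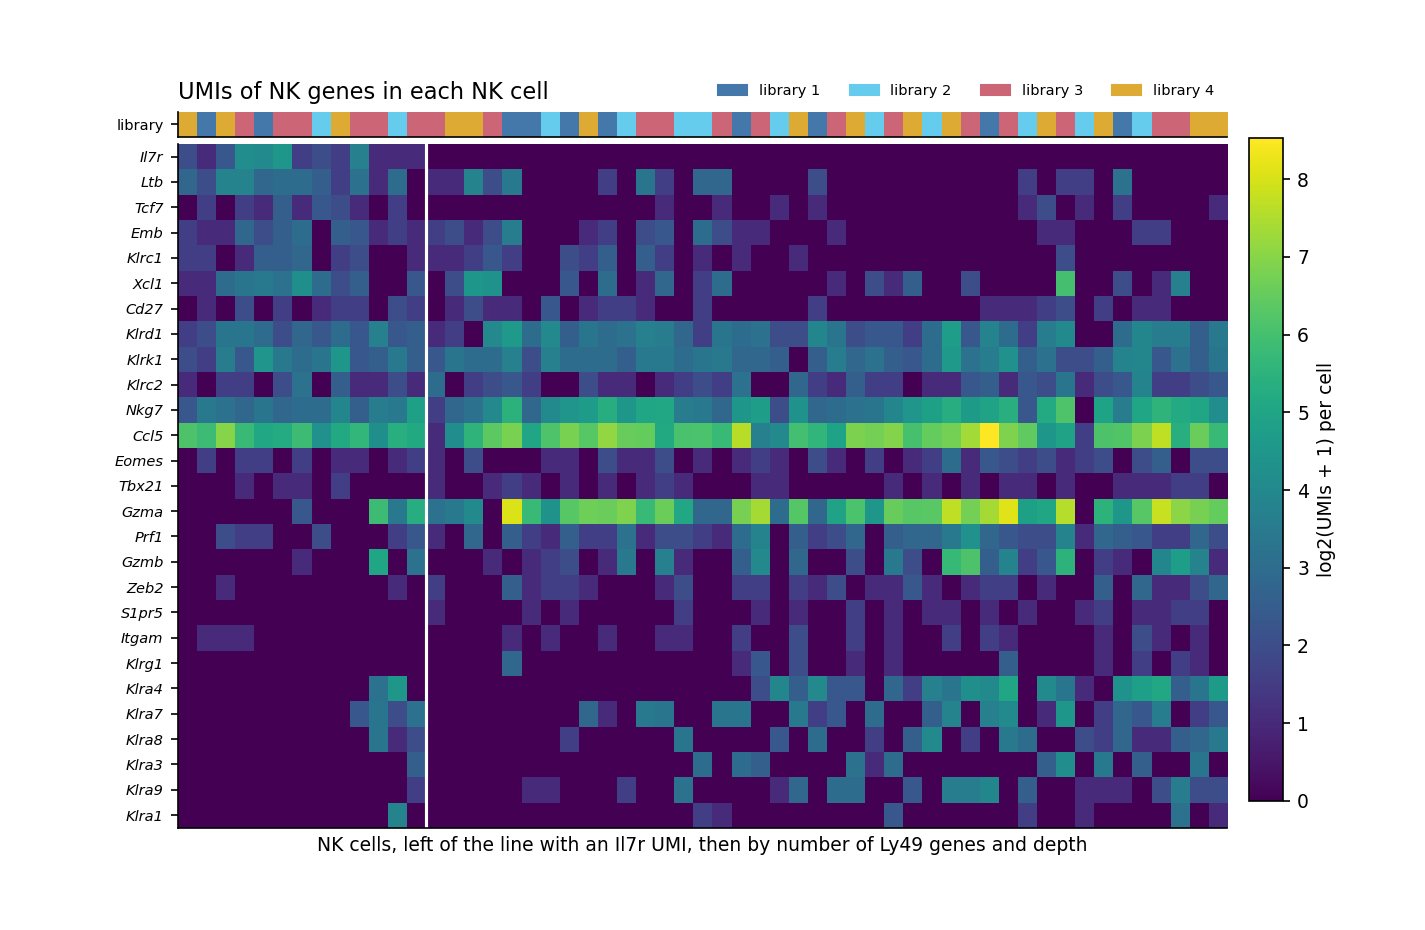
UMIs of 27 genes (rows) in each of the 55 NK cells (columns) as log2(UMIs + 1), with the library of each cell in the strip above; the 13 cells left of the white line have an Il7r transcript, and cells on each side are ordered by number of Ly49 genes and then by depth. Ccl5 and Nkg7 run through nearly all columns, Gzma is mostly dark left of the line and bright right of it, and Ltb, Tcf7 and Emb are denser on the left.

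By library, the summed type I interferon genes stood at 722 CPM (exact Poisson interval 520 to 976), 1222 (962 to 1529), 1819 (1614 to 2044) and 1762 (1487 to 2073) in the NK cells of libraries 1 to 4. The median number of these genes with a transcript per cell was 3, 3, 7 and 5.5, where the median depth per cell was 5554, 5314, 7049 and 4888 UMIs. The same list stood between 2005 and 3072 CPM in CD8 T cells. Cell cycle genes stood at 894 CPM (668 to 1172), 707 (514 to 949), 2095 (1874 to 2335) and 2369 (2048 to 2726). At least 3 of 8 genes of dividing cells were found in 4 NK cells, 2 each in libraries 3 and 4. A cell of library 4 held 58 of 258 counts of Hmgb2 and 7 of 28 of Mki67, genes of the cell cycle list. That cell is not among the 3 left out below. Cell cycle genes stood between 961 and 1147 CPM over libraries in CD8 T cells and between 668 and 2630 CPM in B cells. Genes of the p53 and DNA damage response stood at 584 CPM (405 to 817), 739 (541 to 986), 384 (293 to 495) and 279 (177 to 419). The cell cycle intervals of libraries 1 and 2 lay below those of libraries 3 and 4. For the interferon genes library 1 lay below libraries 3 and 4, and the interval of library 2 lay below that of library 3 and overlapped that of library 4. The p53 interval of library 2 lay above those of libraries 3 and 4, and that of library 1 overlapped library 3. These sums rest on 10, 12, 19 and 14 cells. The library numbers carry no known group, and no test was made between libraries. Without 3 of the cells described next, the p53 value of library 2 was 512 CPM and the cell cycle value of library 3 was 1405 CPM. Each lay below its interval given above. No interval was computed without these cells, so the p53 separations of library 2 from libraries 3 and 4 are not shown without them.

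**Figure D5:**
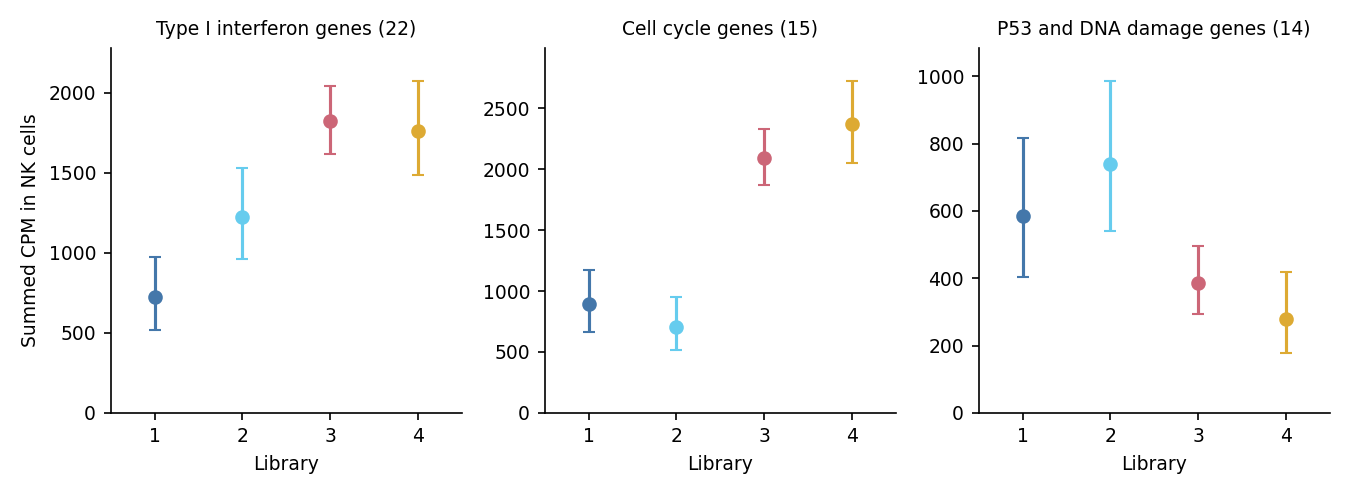
Summed level in NK cells (CPM, from 0) of 3 gene lists in libraries 1 to 4; points are sums over all NK cells of a library and bars are exact 95% Poisson intervals, which cover counting error only. Interferon genes are lowest in library 1 (722), cell cycle genes in library 2 (707) and p53 genes in library 4 (279).

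Genes that differed most between libraries rested on single cells, and these cells were picked out with their values in view. Gzmc, which encodes granzyme C, was counted 251 times, 250 of them in 1 cell of library 2 (4018 CPM of that library), a cell that also had Il7r, Itgae and S100a4. A second cell of library 2, with 11424 UMIs and 7 rule genes, held 38 of 39 counts of Apol7c, 36 of 36 of H2-M2, 28 of Marcks, 48 of 76 of Tmem123, and 20 counts of Ccl22, the last a chemokine of mature dendritic cells. A cell of library 4 with 10430 UMIs held 44 of 56 counts of Lyz2, the lysozyme of myeloid cells. A cell of library 3 with 27932 UMIs was the deepest and held all 12 counts of Cd3g. Without the last 3 of these cells 52 NK cells remained, and 242 genes were called higher and 58 lower against CD8 T cells.

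Markers of other cell types were present. The 8 myeloid and dendritic markers summed to 507 CPM in NK cells (211 to 932 over libraries), more than in any other gate. CD8 T cells held 94.3 CPM and B cells, the next highest, 375 CPM. Of the 182 counts in NK cells, 51 lay in the library 4 cell with 10430 UMIs and 34 in the library 2 cell with 11424 UMIs. Csf1r, C1qb, Fcgr1 and S100a8 were at 0, and 1 of 3 tested, Itgax, was called higher. The 8 B cell markers summed to 549 CPM (224 to 1270) against 464 CPM in CD8 T cells and 29080 CPM in B cells. The 8 T cell markers summed to 669 CPM (455 to 1154) against 4126 CPM, of which Trbc1 and Trbc2 made up most. Erythroid markers summed to 100.3 CPM, with Hba-a1 called lower than in CD8 T cells, and plasmacytoid dendritic markers to 201 CPM, with Ccr9 called lower and Siglech at 0, and the 4 melanoma markers to 4 counts, with Mlana and Tyrp1 at 0. What part these transcripts have in the levels above was not tested.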

How the data were processed

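The authors deposited 1 matrix of raw UMI counts, 31053 genes by 30824 barcodes of 10x 3' version 3 libraries, made with cellranger 5.0.0 per the file headers. The genome build mm10 comes from the submitters' processing notes. Whether reads were evened out between libraries, and whether counting used strand, is not given in the sources used here. No column of per-sample values was left unused (0). Members and gene lists were chosen with earlier results of these data known.

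From the deposited counts, cells were gated as described, and UMIs were summed per class and library and divided by the class total to give CPM. The genes of both gates were left out of the genes tested. A gene needed 50 CPM in either class over all libraries, and a call needed a 2-fold ratio in each library with at least 10 cells of both classes, with at least 3 such libraries. Ratios are printed without a prior. A count of 0 allows up to 3 counts, taken over all NK cells. Doublets were scored with Scrublet in scanpy 1.11.5 at 0.8% per 1000 cells and not removed. edgeR 4.0.16 in R 4.3.3 gave the TMM factors and nothing else. The other steps used Python 3.11.15, scipy 1.17.1, pandas 2.3.3, numpy 2.4.6 and, for plots, matplotlib 3.10.9. Recovery of known changes by this rule was tried on simulated class sums, and no outcome is given here. The simulation used the same spread for all genes and no single cells. It therefore cannot measure recovery in sums of few, uneven cells.

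Named genes were the rule genes, up to 3 called genes per list and direction ranked by ratio after adding a prior count of 1 and capped at 28, the 10 largest in each direction against the memory-like and gamma-delta T cells, and a fixed set of genes (among them Btk, Txk, Ido1, Gzmb, Ifng, Cd27, Itgam, Il7r, Trac, Cd3g). Between libraries, the 6 genes with the widest spread were named, taken as the ratio of the top to the bottom library with 50 CPM added to each, where some library had 100 CPM or more. Other genes in the text are list members or were chosen after their values were seen. Results for a few genes are not reported here. The alternatives tried were the number of rule genes (2 or 4), a filter of 500 genes and 5% mitochondrial UMIs, a stricter T cell exclusion, called doublets left out, cells thinned to 1500 UMIs, a fold of 1.5, TMM, no level filter beyond 10 counts, the mean of single cells, and each library left out. Leaving out the 3 NK cells that stood apart was added after seeing the data.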

Additional observations from a re-analysis of the deposited data

How the results depend on the processing

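No paired analysis was possible because the libraries are not tied to treated or control mice, and the comparisons of cell classes, whose ratios are taken within each library, rest on no test. With 55 NK cells, 1 UMI is 2.79 CPM over all of them and 16.1 to 17.2 CPM in libraries 1 and 2, so genes near 50 CPM rest on few counts. The NK number was 61 with 2 rule genes, 49 with 4, 51 with the stricter T cell exclusion, 55 without doublets, 65 in thinned cells and 52 without the 3 cells that stood apart. With 500 genes and 5% mitochondrial UMIs the share was 0.305% over all and 0.342% in library 4. Genes called higher and lower were 418 and 122 (CD8 T), 337 and 99 (memory-like) and 219 and 117 (gamma-delta) at a fold of 1.5. They were 112 and 180, 76 and 151, and 82 (higher, gamma-delta) under TMM, where 29 list genes were lower. With no level filter beyond 10 counts they were 383 and 2781, 291 and 961, and 304 (lower, gamma-delta). With a library left out, where 3 in place of 4 libraries must pass, they were 266 to 300 and 66 to 81 (CD8 T), 208 to 231 and 51 to 72 (memory-like), 152 to 183 and 84 to 86 (gamma-delta), and 55 to 57 and 20 to 22 list genes. Interferon genes of library 2 stood at 802 CPM with 4 rule genes. Cell cycle genes of library 3 stood at 1405 CPM with the stricter exclusion and without the 3 cells, and at 1533 as a mean of single cells, and those of library 4 at 2849 with 4 rule genes, 2754 with the stricter exclusion and 1757 as a mean of single cells. The p53 genes of library 2 stood at 512 CPM without the 3 cells. The causes were not tested. Over the named genes, 1132 values kept direction and side of the rule, 33 fell below it, 18 passed it newly and 0 reversed.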
